A study of Mus musculus with 4 samples.

Results

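The cytosolic ribosomal protein genes were taken as every protein-coding mouse gene whose symbol is Rpl or Rps followed by a digit, together with Rplp0, Rplp1, Rplp2, Rpsa and Fau, without the Rps6k kinases and Rps19bp1. The rule used symbols alone and no measured value. It gave 92 of the 21951 protein-coding genes of the annotation, 57 of the large and 35 of the small ribosomal subunit. Of these, 14 carry a paralog symbol (8 genes, such as Rpl22l1) or a pseudogene symbol (6 genes, such as Rpl9-ps6), which left 78 genes under the plain name of a ribosomal protein, 46 of the large subunit and 32 of the small subunit.

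RNA sequencing was done on primary 4T1 tumors of female Foxp3+EGFP Balb/c mice, 8 weeks old, grown in the mammary fat pad from inoculated cells. 4T1 is a transplantable mammary carcinoma line of the Balb/c strain. The mice received for 12 days either a Control SMO or a LFPRLR SMO, a splice modulating oligomer directed at the long form of the prolactin receptor, and RNA of 6 mice was combined into 1 library per treatment, so no value has a replicate error and no test was possible. Every mouse carried the EGFP reporter driven by Foxp3, and the whole tumor libraries held tumor cells, stroma and infiltrating leukocytes together. Tumor Tregs were sorted for EGFP from 6 further mice per treatment.

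All 4838 transcripts listed for tumor Tregs under the Control SMO label were equal in position and value to the 4838 listed under the LFPRLR SMO label, and both headers named 1 alignment called control. They were used as 1 set with no comparison between treatments. None of 17 T cell and Treg markers, Foxp3, Cd4 and Cd3e included, was listed in that set, whereas 14 of 14 monocyte and macrophage markers were. The markers thus went against the label, and the set is named tumor Treg here only because its label says so. In whole tumor, 22481 transcripts were listed in Control SMO tumors and 31908 in LFPRLR SMO tumors. The values are FPKM without read counts, so depth is unknown and no counting interval was computed. The bounds that Cufflinks wrote beside its values are described below.

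A cytosolic ribosome is built from a small subunit, which reads the messenger RNA, and a large subunit, which forms the peptide bond. Each holds ribosomal RNA and a set of proteins that are present mostly in single copies, and the protein P0 carries dimers of P1 and P2 on a flexible stalk of the large subunit that contacts the elongation factors. Messages of ribosomal proteins are short, abundant in dividing cells, and typically begin with a C followed by a stretch of pyrimidines, the 5′ TOP element, through which their translation responds to mTOR. Many of their introns hold small nucleolar RNAs (snoRNAs), which guide modification of ribosomal RNA.

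Runs of pyrimidines were found in the reference sequence around the annotated start sites of many members. A promoter entry was present in the RefSeq table (GRCm38.p6) for 58 of the 78 genes. A run of at least 8 bases that begins with C and holds only C and T, on the gene's own strand, with its first base from 20 bases before to 50 bases after the annotated start, was found in 46 of the 58 genes (79.3%), in 29 of 34 large subunit and 17 of 24 small subunit genes. The same search found a run in 22.7% of the 27025 genes of the table. With the first base within 10 bases of the start, it was found in 24 of the 58 (41.4%) and in 9.09% of all genes. The following stretches, of at most 30 bases, belong to members whose values are described below and that hold a run, and they show its letters and setting. The first base of the run lay from 8 bases before the annotated start (Rpl14) to position 41 after it (Rpl41). Whether a run away from the annotated start is the 5′ TOP element of the message was not tested. Capitals mark the run.
Rpl38, chr11:114668570-114668599, plus strand: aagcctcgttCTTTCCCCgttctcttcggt
Rpl11, chr4:136053360-136053389, minus strand: ggccggaagtCTCCCTCTCTCTTCCTgttc
Rpl14, chr9:120571499-120571528, plus strand: gcagggcgggCCCTCTCTCTTCTCgctgag
Rpl27a, chr7:109519181-109519210, plus strand: acttcgtgagCTCCTCCCTTTTCCCTTTCT
Rpl37, chr15:5116631-5116660, plus strand: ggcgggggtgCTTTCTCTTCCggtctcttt
Rpl41, chr10:128549119-128549148, minus strand: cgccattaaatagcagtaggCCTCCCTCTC
Fau, chr19:6057934-6057963, plus strand: cgcgcccccaCTTCTTCCTCTTTCTTgact
Rps27, chr3:90213631-90213660, minus strand: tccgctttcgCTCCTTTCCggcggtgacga
Rps26, chr10:128626483-128626512, minus strand: gccgccggatCCTCTTTCgagtcttggctc
Rps23, chr13:90923142-90923171, plus strand: tgggtccttcctgcaCCTCCTCTCTCTTTC
By FPKM, these include members that were higher with LFPRLR SMO (Rpl41, Rpl27a) and members that were lower (Rpl38, Rpl11, Rpl14, Rps23). Because only members holding a run are printed, the stretches cannot show whether the run goes with either direction.

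Ribosomal protein genes were among the most abundant protein-coding genes in each library. Expression is given as FPKM, the number of fragments that the assembler assigned, scaled to transcript length and to the size of the library, summed over the transcripts of a gene. When transcripts under 300 bases were left out, 52 of the 100 highest protein-coding genes were members in whole tumor with Control SMO, 52 with LFPRLR SMO and 48 in the tumor Treg set. All 78 plainly named genes were listed in whole tumor under either treatment, as were Rpl22l1, Rpl36al, Rpl7l1 and Rps27l, giving 82 listed members in each (49 of the large and 33 of the small subunit). The median FPKM of the listed members was 170 in Control SMO tumors and 130 in LFPRLR SMO tumors, against 5.35 and 5.43 over all listed genes. Large subunit members had a median of 180 in Control SMO tumors and 123 in LFPRLR SMO tumors, and small subunit members 167 and 138.

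**Figure D1:**
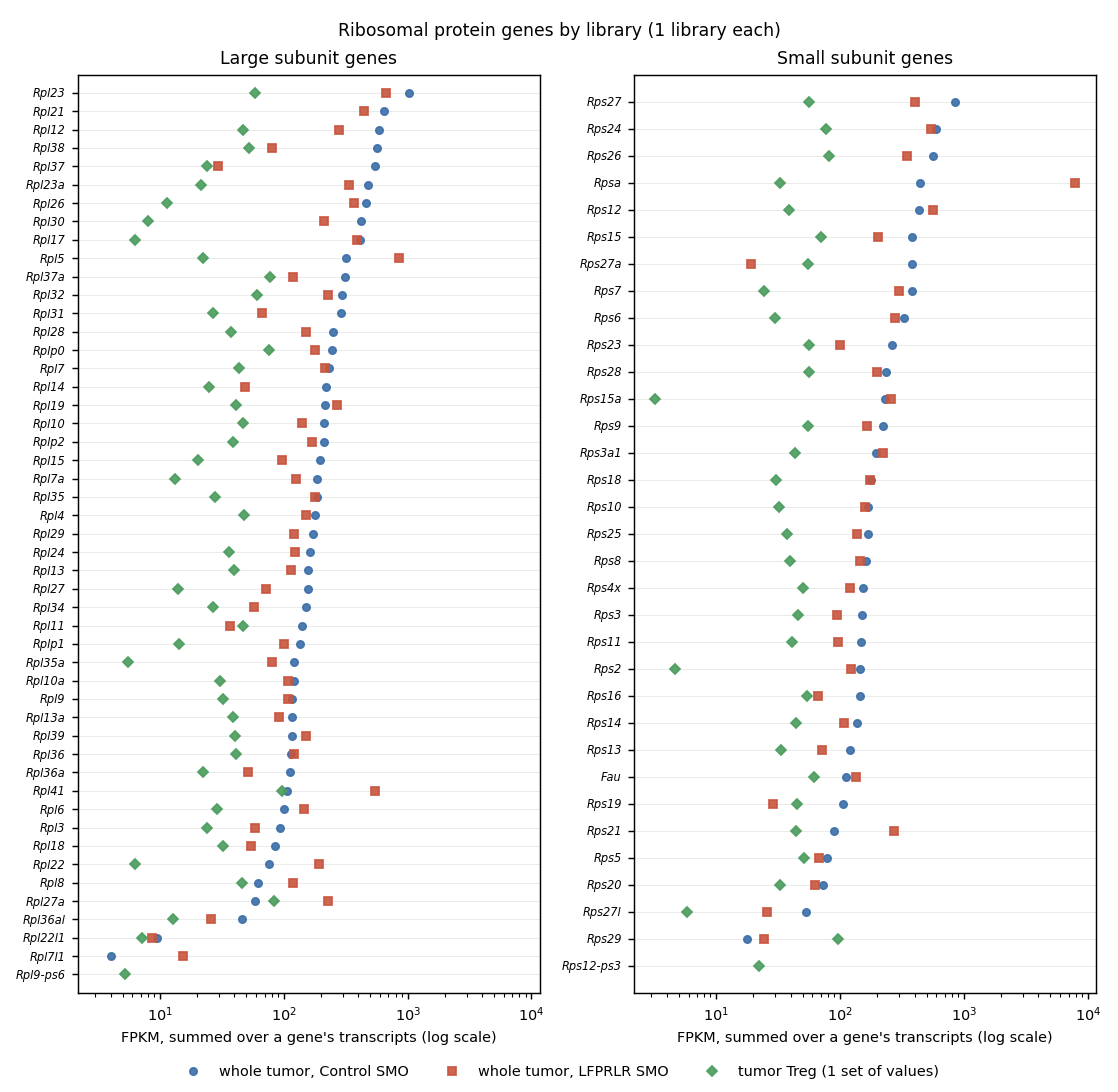
FPKM of the listed members (log axis), large subunit genes in the left panel and small subunit genes in the right, ordered by the Control SMO level; circles are whole tumor with Control SMO, squares whole tumor with LFPRLR SMO and diamonds the tumor Treg set, each 1 library. Most squares lie a little to the left of the circles, a few lie far from them (Rpsa at 7862, Rps27a at 19.0, Rpl41 at 544), and Rps29 and Rpl41 lead the tumor Treg set.

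Most members had 1 assembled transcript. With Control SMO, 75 members had 1 transcript and 7 had more, and with LFPRLR SMO the numbers were 71 and 11. Among the large subunit genes, Rpl23 was highest, at an FPKM of 1030 in Control SMO tumors and 671 in LFPRLR SMO tumors. Rpl21 was at 644 and 445, Rpl12 at 588 and 281, and Rpl26 at 460 and 369. Each of these was lower with LFPRLR SMO. Among the small subunit genes with transcripts of at least 300 bases in both libraries, Rps24 was at 592 and 543, Rps26 at 560 and 350, and Rps7 at 380 and 297. Rps12 went the other way, from 436 to 563. Rpsa, the protein also known as the laminin receptor, was at 441 with Control SMO and, in transcripts of at least 300 bases, at 352 with LFPRLR SMO. The FPKM of the 78 genes spanned from 17.6 (Rps29) to 1030 with Control SMO, with an SD over genes of 1.01 on the log2 scale.

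On the FPKM scale, levels with LFPRLR SMO were mostly below those with Control SMO. On the TPM scale, which sets the sum of all transcripts equal in each library, the direction reversed, since TPM added 4.55 to every log2 ratio, those of all other genes included. The log2 ratio of LFPRLR SMO to Control SMO, computed as log2 of FPKM + 0.1 for genes at an FPKM of at least 1 in either library, had a median of -0.44 over the 49 large subunit members and -0.28 over the 33 small subunit members. Over all 10463 genes the median was -0.08. Of the 82 members, 65 lay below 0, and of all genes 5624. By a factor of 2 or more, 17 members were lower, 20.7% of the 82, against 17.0% of all genes. By that factor, 7 members were higher, 8.54%, against 18.5% of all genes. All 82 members were listed in both libraries, but the shares of ratios over all genes, here and below, include genes listed in only 1. Such a gene always passes a factor of 2. The shares are thus not alike in make-up, and no conclusion is drawn from them. Counts over all genes by transcript length in both libraries are given below. Other abundant genes moved in a similar way: the 215 protein-coding genes outside the set with a mean FPKM of at least 50 over both libraries had a median log2 ratio of -0.39, equal at this rounding to that of the 82 members, with 16 higher and 49 lower by a factor of 2. A downward shift of this size was thus also seen outside the ribosomal protein genes. In bulk tumor RNA, fewer cells of a type and less RNA per cell cannot be told apart. The summed FPKM of the 14 monocyte and macrophage markers was 674 in Control SMO tumors and 447 in LFPRLR SMO tumors, and that of 9 epithelial markers of the tumor cells 298 and 304. Their part in the members' values was not tested.

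**Figure D2:**
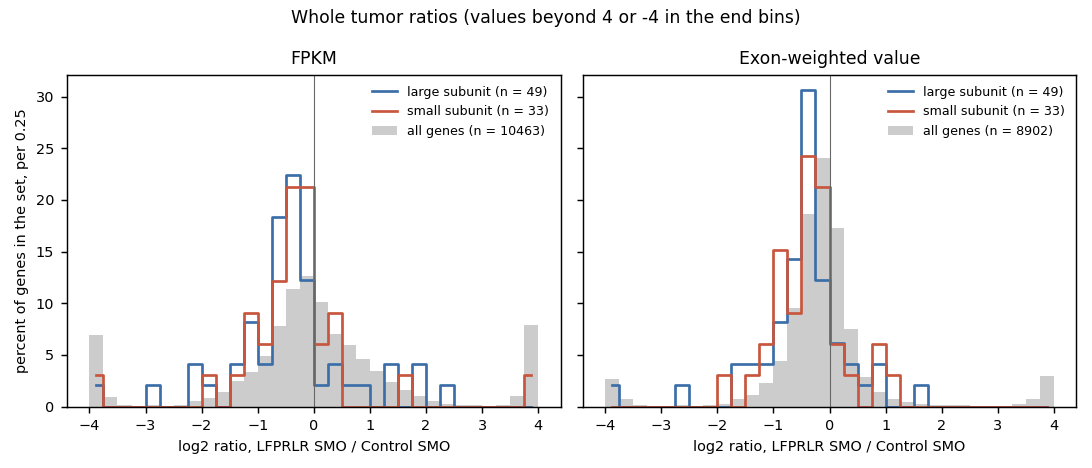
Log2 ratio of LFPRLR SMO to Control SMO in whole tumor (horizontal axis) against the percent of genes of each set per bin of 0.25 (vertical axis), for FPKM on the left and for the exon-weighted value on the right; gray bars are all genes, lines the large and small subunit members. Both lines peak between -0.5 and 0. The broad gray tail above 1 in the left panel, which includes genes listed in only 1 library, holds few members.

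The members were also described as shares of length-weighted totals. FPKM multiplied by transcript length and summed over transcripts of at least 300 bases gave the members 5.23% of the total of protein-coding genes with Control SMO, 4.71% with LFPRLR SMO and 4.48% in the tumor Treg set. From Control SMO to LFPRLR SMO, the members' own sum went from 10941 to 8628 and that of protein-coding genes from 209140 to 183094. Of the total of all transcripts of at least 300 bases, the members held 2.63%, 2.20% and, in the tumor Treg set, 0.132%. Whether that set resembles whole tumor thus depends on the total used. Each share comes from 1 library, so the differences have no error to be read against.

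The length of the transcript that was assembled differed between the libraries for many members, and the FPKM moved against it. Over the 82 members, the log2 ratio of assembled length (weighted by FPKM) and the log2 ratio of FPKM had a Pearson's r of -0.90 and a Spearman's rho of -0.74. The points share both libraries, and FPKM holds the length in its denominator, so this is a description. In 54 members the lengths lay within 20% of each other. Of these, 51 had a log2 ratio of FPKM below 0, with a median of -0.40, none was higher by a factor of 2 and 8 were lower. Over the 3534 genes of all kinds with lengths within 20%, the median was -0.18, with 2416 below 0, 77 higher and 138 lower by a factor of 2. In 14 members the transcript with LFPRLR SMO was more than 20% longer, and all 14 were below 0 (median -1.50). In the other 14 it was more than 20% shorter, and all were above 0 (median 1.13). All 7 members that were higher by a factor of 2 came from this last group. All genes showed the same pattern: of 2105 with a longer transcript, 1909 lay below 0 (median -0.80), and of 3065 with a shorter 1, 897 were higher by a factor of 2 (median 0.64).

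**Figure D3:**
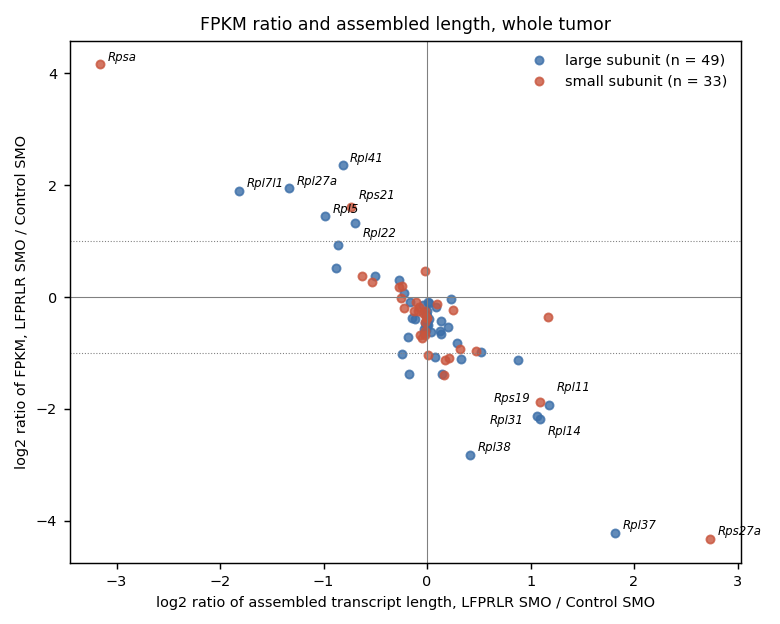
Log2 ratio of FPKM (vertical axis) against the log2 ratio of assembled transcript length (horizontal axis), LFPRLR SMO over Control SMO in whole tumor, 1 point per member listed in both libraries; dotted lines mark a factor of 2. Points run from Rpsa at the upper left to Rpl37 and Rps27a at the lower right, and most members sit near 0 in length and a little below 0 in FPKM.

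A further 3 values were used beside FPKM to see which ratios rest on assembly. The first counted only transcripts of at least 300 bases. It could differ from FPKM only for members with a shorter transcript. The second, the exon-weighted value, multiplied each FPKM by the bases it shared with the gene's annotated exons and divided by the longest annotated transcript. It was meant to keep fragments spread over intron or neighboring sequence from lowering the value. The third took the midpoint of the confidence bounds that Cufflinks wrote beside each FPKM. Of the 89 member transcripts with Control SMO, 54 had an FPKM above their own upper bound, and of 94 with LFPRLR SMO, 61 did, whereas 94.0% and 95.3% of all transcripts lay within theirs. The bounds were for that reason not used as errors. By transcripts of at least 300 bases, 9 of 81 members were higher and 14 lower, against 18.3% and 16.6% of 10408 genes. The 9 include Rpl37, Rps14 and Rps27, which had no transcript of that length in Control SMO tumors. By the exon-weighted value, 2 members were higher and 12 lower, against 5.74% and 8.53% of 8902 genes. The medians were -0.40 for large and -0.34 for small subunit members. This value was not free of assembled length: over the 82 members its log2 ratio and that of length had a Pearson's r of -0.62 (Spearman's rho -0.56). Its median was -0.98 for members with a longer transcript and 0.27 for those with a shorter one, against -0.19 and -0.11 over all genes. By the midpoint, 3 were higher and 14 lower, against 17.2% and 15.3% of 10459 genes, and the medians were -0.34 and -0.49. Which subunit lay lower thus depended on the value used.

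**Figure D4:**
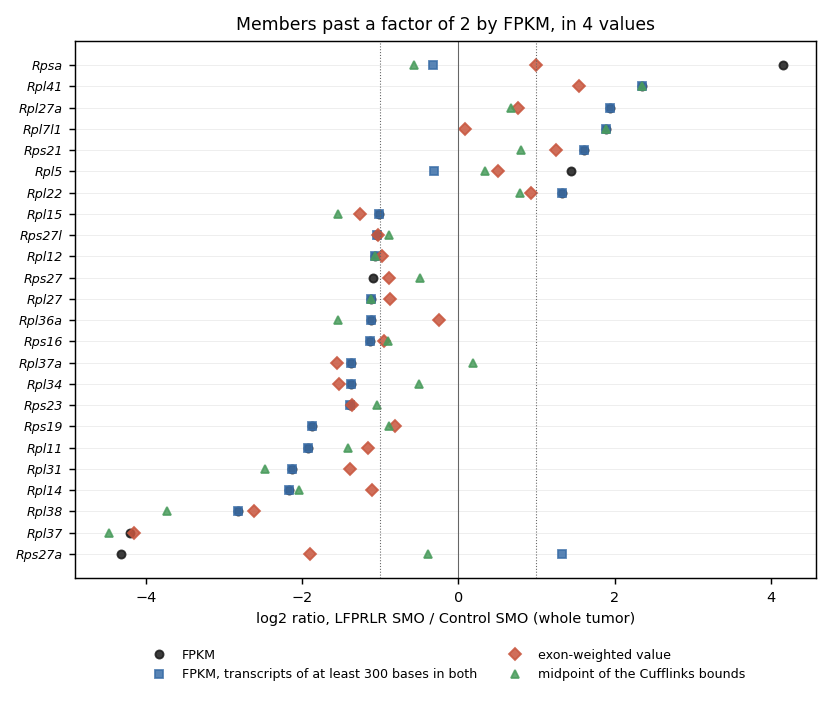
The 24 members past a factor of 2 by FPKM (vertical axis), with the log2 ratio of LFPRLR SMO to Control SMO (horizontal axis) in FPKM, in FPKM of transcripts of at least 300 bases where both libraries had one, in the exon-weighted value and in the midpoint of the bounds; dotted lines mark a factor of 2. Rpl41 stayed above 1 in all 4 values and Rpl38, Rpl31, Rpl14, Rpl11, Rpl15 and Rps23 below -1. Rpsa, Rps27a, Rpl5 and Rpl37a changed side.

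Rpl41 was the 1 member of 7 that stayed higher by a factor of 2 in all 4 values. It encodes the smallest protein of the ribosome and lies at chr10:128548114-128549305, minus strand. Its FPKM was 106 in Control SMO tumors and 544 in LFPRLR SMO tumors, a factor of 5.11. The transcript was 740 bases in the first and 421 bases in the second, and the exon-weighted value went from 113 to 330. As neither was under 300 bases, leaving out short transcripts could not change the ratio. The log2 ratio was 2.35 by FPKM and by the midpoint, and 1.54 by the exon-weighted value, the only one of the 3 further values that differed. In the tumor Treg set Rpl41 was at 96.8.

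Of the 17 lower members, 6 stayed lower by a factor of 2 in all 4 values: Rpl11, Rpl14, Rpl15, Rpl31, Rpl38 and Rps23. None of the 6 had a transcript under 300 bases in whole tumor, so leaving out short transcripts could not change their ratios. Rpl38, a large subunit protein whose loss in mice alters skeletal patterning, lies at chr11:114668524-114672331, plus strand. It fell from 564 with Control SMO to 79.8 with LFPRLR SMO, a factor of 7.08, with transcripts of 338 and 452 bases and exon-weighted values of 417 and 67.7. It was the largest drop among members whose transcripts were of at least 300 bases in both libraries. Rpl31 fell from 291 (431 bases) to 66.3 (899 bases), and Rpl14 from 220 to 48.7, where a transcript of 370 bases with a second of 900 gave way to 1 of 1196 bases. Rpl11, which binds Mdm2 when ribosome assembly is disturbed, fell from 142 (581 bases) to 37.1 (1318 bases). Rpl15 fell from 197 to 97.2 and Rps23, a protein of the decoding center, from 261 to 99.5. In exon-weighted values these 5 drops were smaller for Rpl11 (89.7 to 40.2), Rpl14 (75.9 to 35.2) and Rpl31 (119 to 45.4) and about as large for Rpl15 (78.8 to 32.9) and Rps23 (107 to 41.6).

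For several other members at the ends of the range, the call depended on the value. Rpl34 was at 151 in Control SMO tumors and 57.8 in LFPRLR SMO tumors, with log2 ratios of -1.38 by FPKM, -1.54 by the exon-weighted value and -0.51 by the midpoint. Rps19, mutated in Diamond-Blackfan anemia, was at 105 (457 bases) and 28.5 (983 bases), a log2 ratio of -1.88 by FPKM and -0.81 by the exon-weighted value. Rps16 was at 145 and 65.9, with -1.13 and -0.96. On the upper side, Rpl27a was at 58.9 (943 bases) with Control SMO and 227 (374 bases) with LFPRLR SMO, with log2 ratios of 1.94 by FPKM and 0.76 by the exon-weighted value. Rps21 was at 88.9 (566 bases) and 273 (340 bases), with 1.61 and 1.25, and 0.81 by the midpoint. Rpl8, Rps12 and Rps29 stayed within a factor of 2 in all 4 values. Rpl8 was at 62.2 and 119, with 0.94 and 0.18. Rps12 had 0.37 and 0.06, and Rps29 0.47 and 0.43 at low levels of 17.6 and 24.4.

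Transcripts under 300 bases were listed for 7 members in whole tumor. Over all transcripts, those under 300 bases held 99.4% of the summed FPKM with Control SMO and 87.2% with LFPRLR SMO. Over the members they held 10.9% and 37.1%, and 5.62% in the tumor Treg set, in 5, 3 and 7 transcripts. With LFPRLR SMO, Rpsa was listed at 7862, of which 7510 came from 1 transcript of 76 bases, and without that transcript the log2 ratio changed from 4.15 to -0.33. The FPKM of the 76-base transcript was 368 times the midpoint of its own bounds. Rpl5, a protein of the 5S RNA complex of the large subunit, was at 315 in Control SMO tumors and 856 in LFPRLR SMO tumors. Of the latter, 602 came from a transcript of 212 bases, and the log2 ratio changed from 1.44 to -0.31 without it. The Control SMO sum kept an overlapping single-exon transcript of 328 bases at 90.7, which lies above the limit of 300 bases. The sign of the second ratio thus rests on a removal from 1 library only, and no direction is read from it. Rps27a, which is made as a fusion with ubiquitin, went the opposite way. It was at 381 with Control SMO, of which 374 came from a transcript of 183 bases, and at 19.0 with LFPRLR SMO in a transcript of 1310 bases. Its log2 ratio was -4.32 with all transcripts and 1.32 with those of at least 300 bases, and the exon-weighted value gave -1.91.

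In the remaining 4 members, leaving out the short transcripts removed the value of 1 or both libraries. Rpl37 was at 543 in a transcript of 282 bases with Control SMO and at 29.3 in 1 of 995 bases with LFPRLR SMO, a factor of 18.5, and the log2 ratios by the exon-weighted value (-4.16) and by the midpoint (-4.48) were as large. Rps27 was at 855 in a transcript of 287 bases and at 400 in 1 of 332 bases. Rps14 was at 138 in 229 bases and at 108 in 513 bases, a log2 ratio of -0.36 by FPKM, 0.80 by the exon-weighted value and 1.91 by the midpoint, which called it higher. Rps28 had only short transcripts in both libraries, of 295 and 277 bases, at 237 and 198. Lengths just inside and just outside the limit of 300 bases thus held similar transcripts of small proteins, such as Rps28 at 295 and Rpl37a at 306 bases.

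Single-exon transcripts in 3 members lay over annotated snoRNAs. Of the 92 members, 30 hold an annotated snoRNA on their strand, 58 snoRNAs in all. With LFPRLR SMO, the 76-base transcript of Rpsa lay wholly in the snoRNA gene Gm24044, the 212-base transcript of Rpl5 covered 93 of the 94 bases of Snord21, and a 116-base transcript at an FPKM of 567 lay in Snord15a, in an intron of Rps3. With Control SMO only the site in Rpl5 was listed, as a transcript of 328 bases at 90.7 that covered 85 bases of Snord21. The annotated RNAs (GENCODE, GRCm38) are given here because these short transcripts set the values of Rpsa and Rpl5. Capitals mark the bases under the LFPRLR SMO transcript.
Gm24044 in Rpsa, chr9:120128780-120128935, plus strand: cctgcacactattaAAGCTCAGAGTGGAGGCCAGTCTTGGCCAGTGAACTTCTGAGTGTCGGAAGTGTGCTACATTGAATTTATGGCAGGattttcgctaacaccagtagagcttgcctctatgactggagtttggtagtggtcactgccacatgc
Snord21 in Rpl5, chr5:107904555-107904648, plus strand: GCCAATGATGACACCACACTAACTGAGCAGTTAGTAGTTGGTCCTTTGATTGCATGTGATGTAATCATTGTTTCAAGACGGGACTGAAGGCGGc
Snord15a in Rps3, chr7:99482785-99482932, minus strand: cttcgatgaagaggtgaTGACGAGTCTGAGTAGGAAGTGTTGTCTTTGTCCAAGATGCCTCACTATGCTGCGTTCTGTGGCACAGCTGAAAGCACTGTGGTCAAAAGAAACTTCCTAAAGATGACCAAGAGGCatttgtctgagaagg
Rps3 itself, counted without the Snord15a transcript, was at 151 in Control SMO tumors and 94.5 in LFPRLR SMO tumors.

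The stalk proteins stayed close to each other. Rplp0 was at 243 in Control SMO tumors and 179 in LFPRLR SMO tumors, Rplp1 at 135 and 101, and Rplp2 at 210 and 170. Their log2 ratios were -0.44, -0.42 and -0.30, and the exon-weighted ones -0.44, -0.40 and -0.31, all within a factor of 2. Fau, made as a fusion of a ubiquitin-like protein with a small subunit protein, was at 112 and 134, with a log2 ratio of 0.26 by FPKM and -0.07 by the exon-weighted value.

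In whole tumor, paralogs were lower than their parents where both were listed, while in the tumor Treg set Rpl22l1 was at 7.20 and Rpl22 at 6.25. Rpl22l1 was at 9.55 in Control SMO tumors and 8.59 in LFPRLR SMO tumors, while its parent Rpl22 was at 76.2 (642 bases) and 191 (397 bases). Rpl7l1 was at 4.04 in a transcript of 2510 bases and at 15.3 in 3 transcripts, with an exon-weighted log2 ratio of 0.09, and Rpl7 at 232 and 217. Rpl36al was at 46.1 and 25.9 beside Rpl36a at 113 and 51.9. Rps27l, a target of p53, was at 53.4 and 25.9. Rpl10l and Rpl39l, known from testis, and Rpl3l, known from muscle, had no listed transcript in any library, while their parents were listed in both whole tumor libraries: Rpl10 at 210 and 140, Rpl39 at 116 and 151, and Rpl3 at 93.5 and 59.0. Rps27rt, Rpl10-ps3, Rpl36-ps4, Rpl36a-ps1 and Rpl9-ps1 also had none.

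Ribosomal protein genes have many near-identical processed copies, and how reads were divided among copies is not given in the sources used here, so the split between a gene and its copies is uncertain. Of 301 annotated pseudogenes with a ribosomal protein symbol, 5 were listed with Control SMO, at a summed FPKM of 334, and 3 with LFPRLR SMO, at 204. Rpl14-ps1 held most of it, at 200 and 139, levels near those of Rpl14 itself in the first library and above it in the second. In the tumor Treg set 45 were listed, at a summed FPKM of 365, or 11.6% of the members' sum in that set.

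The tumor Treg set listed 81 members, 47 of the large and 34 of the small subunit, with a median FPKM of 39.1. Large subunit members had a median of 32.1 and small subunit members of 44.4. These values were made with another assembler than those of whole tumor and are given side by side, with no ratio. Rps29, at 97.2, was the highest, followed by Rpl41 at 96.8, Rpl27a at 83.9, Rps26 at 82.0, Rpl37a at 78.1 (in 2 transcripts under 300 bases) and Rps24 at 77.5. Rps29 was the lowest plainly named member in whole tumor with Control SMO, at 17.6. The lowest plainly named members here were Rps15a at 3.23, Rps2 at 4.64, Rpl35a at 5.52, Rpl22 at 6.25 and Rpl17 at 6.34, the last in 1 transcript of 253 bases. Rps15a had been assembled as 5134 bases, close to the longest annotated transcript of 5179 bases. Rpl21 and Rpl29, at 644 and 173 in whole tumor with Control SMO, had no listed transcript in the set, and neither had Rpl7l1. In turn, 2 pseudogene symbols were listed only here, Rps12-ps3 at 22.2 and Rpl9-ps6 at 5.24. Rplp0 was at 75.8, of which 39.2 came from a transcript of 224 bases, and Rplp1 was at 14.2, Rplp2 at 39.1, Rpsa at 32.8 and Fau at 61.7.

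**Figure D5:**
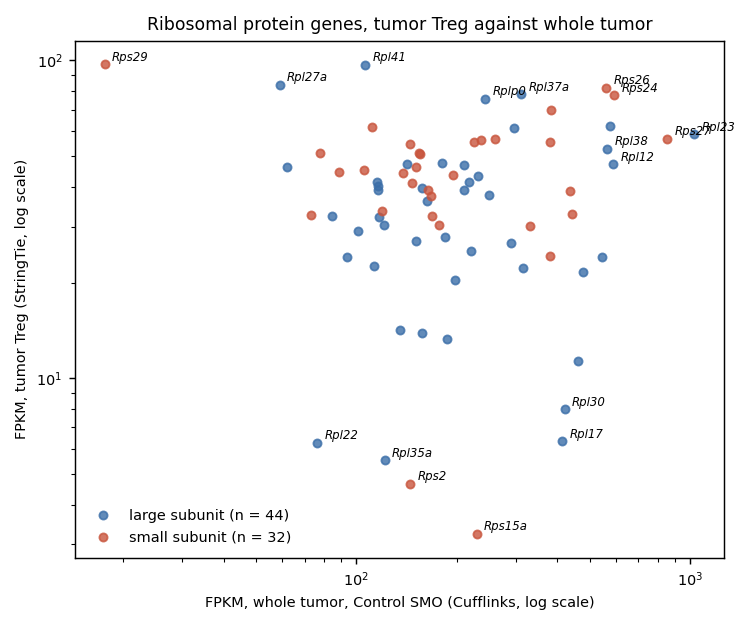
FPKM in the tumor Treg set (vertical axis, StringTie) against FPKM in whole tumor with Control SMO (horizontal axis, Cufflinks), both on log scales, for the 76 plainly named genes listed in both. The cloud has no slope, with Rps29 at the upper left and Rps15a, Rps2 and Rpl17 at the bottom.

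The order of the members in the tumor Treg set was unlike that in whole tumor. Over the 76 plainly named genes listed in all libraries, Pearson's r of log2 FPKM was -0.01 between the tumor Treg set and whole tumor with Control SMO, with Spearman's rho of 0.07, and 0.35 with 0.38 for the exon-weighted value. Between the whole tumor libraries, over 78 genes, r was 0.51 by FPKM, 0.70 for transcripts of at least 300 bases (74 genes) and 0.81 by the exon-weighted value. The points share the annotation, and within each group the assembler, so these are descriptions.

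Lists of genes of translation, ribosome biogenesis and related signaling were described in the same way. The first list held 9 genes under translation elongation, not all of them elongation factors themselves. Of these, 3 were lower and none higher by a factor of 2, with a median log2 ratio of -0.77. By the exon-weighted value 1 of 8 was lower (median -0.55). Over all genes, 18.5% were higher and 17.0% lower by FPKM, and 5.74% higher and 8.53% lower by the exon-weighted value. Eef1a1, which brings aminoacyl-tRNA to the ribosome, fell from 1422 with Control SMO to 443 with LFPRLR SMO (exon-weighted 947 and 410), and Tpt1 was at 744 and 381. Of 37 translation initiation genes, 5 were lower and none higher, with a median of -0.35, and by the exon-weighted value 2 of 36 were lower (median -0.34). Pabpc1, the poly(A)-binding protein, fell from 483 to 144 (exon-weighted 290 and 137), and Eif4a1 was at 44539 and 14610, nearly all in transcripts under 300 bases (55.3 and 52.4 without them). Of 54 ribosome biogenesis genes with a ratio, 7 were higher and 8 lower, with a median of -0.39, and by the exon-weighted value none of 50 was higher and 4 were lower. Npm1 was at 299 in both, Ncl at 65.7 and 61.7, and Nhp2, a protein of the snoRNA particles that guide pseudouridylation, fell from 33.7 to 7.87. Bop1 was listed at 5.99 with Control SMO and not with LFPRLR SMO. Of 6 genes listed as ribosome-associated outside the symbol rule, 2 were lower. Among them was Ubb, a polyubiquitin gene rather than a gene of the ribosome, which fell from 107 to 47.7. By the exon-weighted value 1 of the 6 was lower, and Ubb, at 72.6 and 43.8, was within a factor of 2. Rack1, a small subunit scaffold, was at 55.1 and 49.1. Of 20 genes of mTOR and S6 kinase signaling, 2 were higher and 1 lower, with a median of 0.28 by FPKM and -0.14 by the exon-weighted value. Larp1, which binds 5′ TOP messages, was at 8.62 and 28.6, with exon-weighted values of 8.53 and 8.22. Mlst8 was listed only with LFPRLR SMO, at 2.64, and Rheb, at 14.6 and 6.97, was the lower one.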

How the data were processed

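Per the labels and file headers, whole tumor reads were assembled with Cufflinks and tumor Treg reads with StringTie 1.2.3. The submitters' processing notes also name HISAT2 2.0.4, Cuffdiff 2.0.2 and build mm10. The deposited values are FPKM per assembled transcript as the authors' programs wrote them, with confidence bounds from Cufflinks and TPM from StringTie. The deposited score in column 6 of each file was not used. TPM was computed here for whole tumor only as an alternative.

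Transcripts were assigned to GENCODE M21 genes (mm10) on the same strand by at least 1 shared intron, or otherwise by 50% of exon bases. Tumor Treg transcripts that carried a deposited gene symbol took that gene instead, 78 of the 101 assigned to members. With all of them assigned by position, the set again listed 81 members at a median FPKM of 39.1. FPKM was summed per gene. Ratios were log2 of FPKM + 0.1 over genes at an FPKM of at least 1 in either library. With 1 library per group no test was made, and the depth is unknown. Members and lists were chosen with earlier results of these data known.

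Named were, per subunit, the 5 highest members and the 5 largest and 5 smallest ratios (transcripts of at least 300 bases), members whose call changed with short transcripts, unlisted members, and paralogs with parents. A few genes that this rule or the lists name are not reported here and are left out of the plot of levels. Rpl15, Rpl17, Rpl24, Rpl35a, Rpl37a, Rps2, Rps3 and Rps15a were named after their values were seen. Scripts ran in Python 3.11.15 with numpy 2.4.6 and matplotlib 3.10.9 and were tested on simulated data.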

Additional observations from a re-analysis of the deposited data

Results flagged for a closer look

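With LFPRLR SMO, 3 transcripts on the intervals of members entered no member's sum, and no such transcript was listed at these places with Control SMO. The first, of 116 bases, lay in Snord15a within Rps3 at an FPKM of 567. The second, of 467 bases, lay on the interval of Rpl17 at 5.27, and the third, of 1131 bases, on that of Rps24 at 0.930. They were singled out because they carry signal outside the members' values. With Control SMO, 1 transcript of 1085 bases on the interval of Rpl24 likewise entered no member's sum. Each rests on 1 library.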

How the results depend on the processing

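No paired analysis was possible because each group had 1 library. Of 87 alternative values, 72 stayed within 0.1 of a median log2 ratio or within 1.5 times of a count or level, 13 moved by more and 2 reversed. The reversals came with TPM, which adds 4.55 to every log2 ratio because it divides by the summed FPKM, short transcripts included: the median became 4.03 for large and 4.17 for small subunit members, with 80 higher and 0 lower by a factor of 2. By the exon-weighted value, the median level was 108 with Control SMO, 71.4 with LFPRLR SMO and 22.2 in the tumor Treg set, and 2 members were higher. The next alternatives were added after seeing the data. When the exon-weighted ratios were also centred on the median gene (-0.15), the large subunit median was -0.25, with 4 members higher and 9 lower. The midpoint of the bounds gave -0.34 for large and -0.49 for small subunit members, with 3 higher. The planned factor of 3 left 7 lower members. With unknown depth and 1 library per group, small ratios cannot be told from the spread between libraries.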
